A study of Mus musculus with 267 samples.

Results

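Cd274 and Pdcd1lg2, the genes of the PD-1 ligands PD-L1 and PD-L2, were examined in the chromatin of bone marrow–derived macrophages (BMDMs) treated with interleukin-4 (IL-4). The members were the 2 genes themselves, of 21951 protein-coding genes, and the regions around them: every row of the deposited tag tables and every reproducible factor peak whose centre lay within 50 kb of either gene start, each given to the nearer start. In C57BL/6J (C57) this gave 23 of 77955 regions of the time-course table, 12 for Cd274 and 11 for Pdcd1lg2, and 17 of 67742 regions of the table with basal and 24-hour cells. The other strain tables held 13 of 54022 regions in BALB/cJ (BALB), 18 of 68932 in NOD/ShiLtJ (NOD), 11 of 60175 in PWK/PhJ (PWK) and 20 of 54755 in SPRET/EiJ (SPRET). The EGR2 time-course table held 10 of 30675 sites, and 4 of 4677 sites of the Egr2 genotype tables were members, all near Pdcd1lg2. Of 1958714 peaks in 54 factor lists, 564 were members. The rule used position and no measured value.

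PD-L1 and PD-L2 are cell surface proteins of the B7 family that bind PD-1 on activated T cells and damp T cell signaling. Cd274 is expressed in many cell types and is known for its response to interferon-γ, whereas Pdcd1lg2 is expressed mainly by macrophages and dendritic cells and is used as a marker of macrophages activated by IL-4. IL-4 acts through its receptor and Janus kinases to activate STAT6, which binds DNA and induces further factors, among them EGR2.

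The study used ChIP-seq, in which DNA bound by a protein or carrying a histone mark is precipitated and sequenced, in macrophages grown with M-CSF from the bone marrow of adult female mice. Cells were left untreated (basal) or received mouse IL-4 at 20 ng/ml for 24 hours, and in C57 also for 1 and 6 hours. Cells of the genotypes Egr2 fl/fl and LyzM-Cre Egr2 fl/fl were basal or treated for 24 hours, and both genotypes carry the floxed Egr2 alleles. LyzM-Cre drives deletion in myeloid cells, and a group with Cre and without floxed alleles was not analysed here. H3K27ac, a mark of active promoters and enhancers, H3K4me2, H3K4me3 and RNA polymerase II (Pol II) were counted in regions of 1000 bp around open chromatin, as normalized tags, which the authors scaled to the same total in each library. A group held 1 to 4 libraries, called replicates by the study, and p-values measured the spread between these libraries. Library depth ran from 4691644 to 29050468 tags in 155 of the 267 samples.

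In C57 the promoter regions of all 8 macrophage marker genes were in the table, with 190 to 1294 normalized H3K27ac tags in basal cells and a sum of 4778.4 in basal and 2045.3 in 24-hour cells. None of 4 T cell markers had a promoter region. The 2 of 4 B cell markers with one summed to 90.9 and 44.6, the 1 neutrophil marker to 16.3 and 8.4, the 2 dendritic cell markers to 3.5 and 6.0 and the 1 fibroblast marker to 0.7 and 1.9, and their part in the results was not tested. In bulk samples, fewer cells with a mark and less of the mark per cell cannot be told apart. A smaller share of the C57 H3K27ac tags fell in the counted regions at 24 hours than in basal cells, and these sums carry that difference too. The table site inside Egr2 (chr10:67538716-67539716) held 152.77 and 197.82 H3K27ac tags in Egr2 fl/fl and 161.04 and 143.36 in LyzM-Cre Egr2 fl/fl cells at 24 hours, and 50.27 and 38.01 against 38.11 and 27.47 in basal cells. Whether this site lies in the deleted segment is not given in the sources used here, so it does not check the deletion. The study itself reported that Egr2 was efficiently deleted in LyzM-Cre Egr2 fl/fl BMDMs.

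Cd274 (ENSMUSG00000016496.7) spans chr19:29367455-29388095 and Pdcd1lg2 (ENSMUSG00000016498.10) spans chr19:29410919-29471161 of mm10, both on the plus strand, with starts 43.5 kb apart. Regions are named by the distance of their centre from the start of their gene. The Cd274 promoter region also holds the start of Plgrkt, 65 bp away on the minus strand, and its tags cannot be assigned to either gene. The Cd274 -42.1 kb region is the promoter of Insl6, and the -5.5 kb region lies inside Plgrkt, where the annotation of the authors also places a promoter. Neighboring regions around Pdcd1lg2 +7.2 to +9.2 kb and +19.8 to +20.2 kb overlap and share tags.

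The sequences shown are the promoters of both genes and 3 sites in introns of Pdcd1lg2 that carried a STAT6 or EGR2 peak in C57 cells at 24 hours. They are the reference C57BL/6J bases of GRCm38.p6 (mm10) from RefSeq, plus strand, and capitals mark matches to TTCNNNNGAA (the form bound by STAT6), TTCNNNGAA (other STAT factors) or GAGGAAG (PU.1) on either strand. The 250 bases before the RefSeq start of Cd274 (chr19:29367188-29367437) hold no match to these, to GCGTGGG (EGR), TTGCNNAA (C/EBP) or AGGTCA (PPAR), and the 250 bases before Pdcd1lg2 (chr19:29410669-29410918) hold 1, TTCCTCAGAA, which starts 82 bp before the gene. The windows of 200 bases are the STAT6 peak at +7.2 kb (chr19:29417998-29418197, intron 1) and the EGR2 peaks at +8.7 kb (chr19:29419546-29419745, intron 1) and +20.2 kb (chr19:29431014-29431213, intron 2). A window of the same length at the Cd274 +13.3 kb STAT6 peak (chr19:29380677-29380876), not printed, held no match to any of these forms.
Cd274 upstream: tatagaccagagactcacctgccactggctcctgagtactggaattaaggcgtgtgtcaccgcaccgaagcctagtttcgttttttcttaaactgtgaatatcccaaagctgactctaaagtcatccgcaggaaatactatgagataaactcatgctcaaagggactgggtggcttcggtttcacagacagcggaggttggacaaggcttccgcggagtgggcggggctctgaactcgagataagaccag
Pdcd1lg2 upstream: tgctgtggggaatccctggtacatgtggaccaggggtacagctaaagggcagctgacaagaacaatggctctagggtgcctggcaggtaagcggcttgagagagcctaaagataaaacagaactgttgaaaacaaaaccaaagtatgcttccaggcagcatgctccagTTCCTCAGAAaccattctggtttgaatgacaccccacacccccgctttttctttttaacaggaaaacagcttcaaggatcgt
Pdcd1lg2 +7.2 kb, STAT6 peak: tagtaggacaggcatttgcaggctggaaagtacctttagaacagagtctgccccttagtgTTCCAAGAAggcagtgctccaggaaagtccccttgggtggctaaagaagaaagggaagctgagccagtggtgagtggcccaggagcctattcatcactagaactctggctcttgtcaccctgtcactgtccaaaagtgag
Pdcd1lg2 +8.7 kb, EGR2 peak: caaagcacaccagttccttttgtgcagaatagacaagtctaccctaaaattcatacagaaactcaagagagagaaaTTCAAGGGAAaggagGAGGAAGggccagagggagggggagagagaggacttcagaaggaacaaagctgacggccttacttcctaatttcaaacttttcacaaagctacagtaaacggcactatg
Pdcd1lg2 +20.2 kb, EGR2 peak: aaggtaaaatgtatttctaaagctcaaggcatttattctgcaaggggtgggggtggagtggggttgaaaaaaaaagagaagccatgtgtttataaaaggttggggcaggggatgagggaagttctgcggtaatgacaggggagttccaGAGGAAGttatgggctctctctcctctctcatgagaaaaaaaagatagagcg

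The STAT6 form occurred in 5.85% of 32851 upstream windows of 250 bases and in 6.04% of 77943 regions of the time-course table, read over 200 bases at their centre. The other STAT form, seen at +7.2 kb as TTCCAAGAA, occurred in 7.02% and 5.63%, and the PU.1 form, seen at +8.7 and +20.2 kb, in 10.6% and 20.8%. The EGR form, which no shown window held, occurred in 4.3% and 2.83%, the C/EBP form, seen at +20.2 kb as TTCTGCAA and not in capitals, in 9.56% and 12%, and the PPAR form in 14% and 14%. A match is a description of letters and not a measured binding site.

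In C57 cells the Pdcd1lg2 promoter went from near background to a strongly acetylated region within 24 hours of IL-4, whereas the Cd274 promoter was high before treatment and was not called at any time. At the Pdcd1lg2 promoter region (-0.1 kb, chr19:29410368-29411368), H3K27ac was 8.14 and 3.57 normalized tags in the 2 basal libraries, 48.70 and 27.19 at 1 hour, 96.26 and 74.24 at 6 hours and 127.32 and 112.23 at 24 hours. No library at 1, 6 or 24 hours overlapped the basal ones, and the 3 times did not overlap each other. The log2 fold over basal, on the log2(tags + 1) scale used throughout, was 2.53 at 1 hour (SE 0.57, limma adjusted p = 0.0176), 3.73 at 6 hours (SE 0.57, adjusted p = 0.00147) and 4.22 at 24 hours (SE 0.57, adjusted p = 0.00111). The 1-hour call was lost without basal replicate 2 (log2 fold 2.03), the 6-hour call without 6-hour replicate 1 (3.54), and the 24-hour call was kept without each library in turn. This region was in the time-course table through an open chromatin peak of the 1-hour cells alone and in no row of the C57 table of basal and 24-hour cells. Of the 23 member regions this was the 1 called higher at each time, against 1.37% of all regions at 1 hour, 2.67% at 6 hours and 1.13% at 24 hours, while the median log2 fold of all regions with 16 tags or more was -1.15, -0.37 and -0.60. Scaling the libraries by median ratios gave 3.27 at 1 hour and 3.88 at 6 hours for this region.

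Pol II moved at the same place. At the Pdcd1lg2 promoter it was 1.87, 2.41, 0.54 and 2.03 normalized tags in the 4 basal libraries, which stood for 1 to 3 reads each, 14.72 in the single library at 1 hour, 35.59 and 34.13 at 6 hours and 66.03, 75.54 and 16.67 at 24 hours. The third 24-hour library was the lowest of the treated ones but for the 1-hour library, and it was still above every basal library. The log2 fold was 3.79 at 6 hours (SE 0.58, limma adjusted p = 0.00708) and 4.1 at 24 hours (SE 0.51, adjusted p = 0.000784), and the 6-hour call was lost without either 6-hour library. At Pdcd1lg2 +3.8 kb in intron 1 Pol II was 3.74, 2.41, 1.07 and 2.03 in basal cells, 9.65 at 1 hour, 17.52 and 9.26 at 6 hours and 36.68, 22.3 and 7.7 at 24 hours. All treated libraries were above all basal ones there, and at 24 hours the log2 fold was 2.63 (SE 0.53, adjusted p = 0.029), a call lost without 24-hour replicate 1 or 2 or basal replicate 2, 3 or 4. The calls over the 23 regions were 1 higher at 6 hours and 2 higher at 24 hours, against 0.428% and 0.503% of all regions, and 7 at 24 hours in a fit blocked on replicate number, against 2.36% of all regions called in either direction by that fit, among them +7.2 kb with a log2 fold of 2.31.

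The Pdcd1lg2 +7.2 kb region in intron 1 had H3K27ac already in basal cells. Its values were 100.41 and 27.1 normalized tags in basal cells, 122.14 and 72.63 at 1 hour, 153.25 and 135.1 at 6 hours and 244.46 and 138.48 at 24 hours. The basal libraries overlapped the 1-hour ones and lay below all others, and at 24 hours the log2 fold of 1.79 was not called (SE 0.63, limma adjusted p = 0.158). Its Pol II was 30.57, 14.44, 2.14 and 5.06 in basal cells, 74.13 at 1 hour, 59.69 and 32.18 at 6 hours and 118.05, 71.45 and 20.52 at 24 hours, with a log2 fold at 24 hours of 2.54 (SE 0.66, adjusted p = 0.0991). Farther along, Pdcd1lg2 +20.2 kb in intron 2 was as high in basal cells as after IL-4, with 284.94 and 144.04 H3K27ac tags in basal cells and 230.88 and 90.57 at 24 hours.

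**Figure D1:**
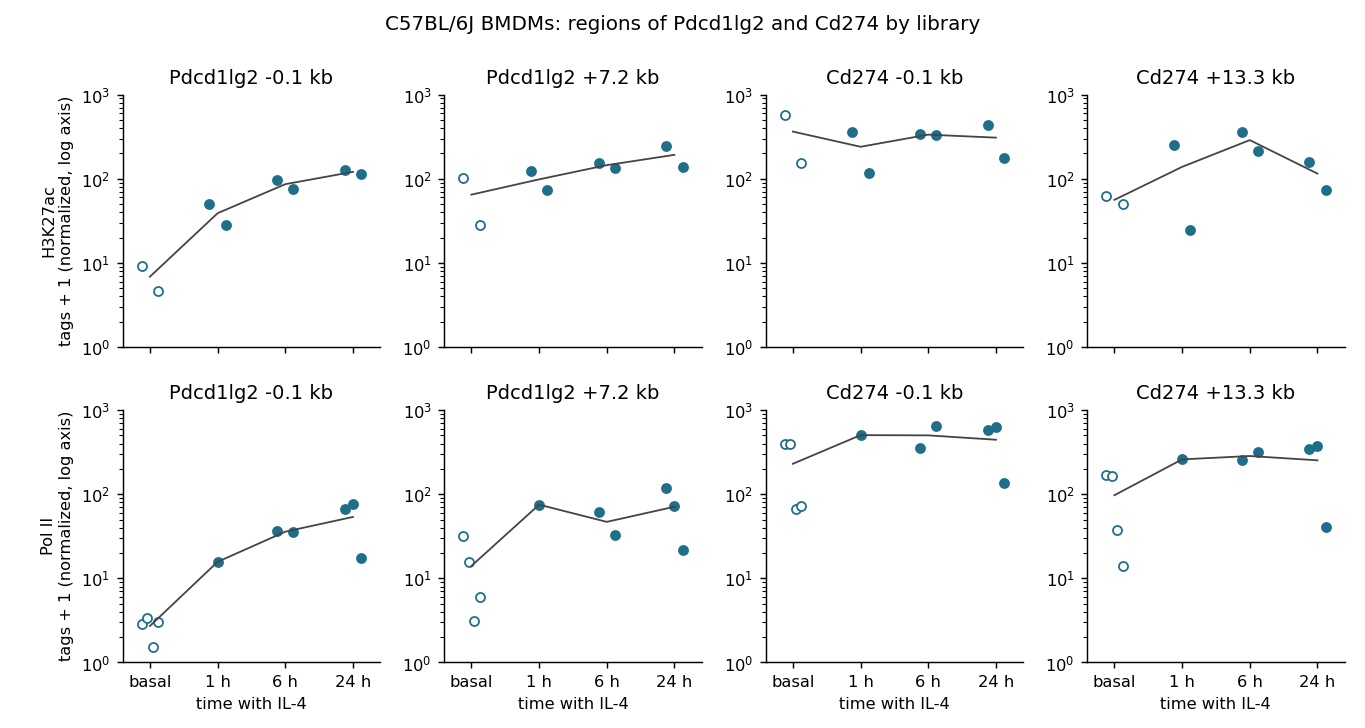
H3K27ac (upper row) and Pol II (lower row) in normalized tags + 1 on a log axis at 4 regions in C57 cells by time with IL-4, with a point per library (open, basal and filled, IL-4) and a line through the group means. The Pdcd1lg2 promoter rose from 8.14 and 3.57 H3K27ac tags to 127.32 and 112.23, and the Cd274 promoter held 115.66 to 573.27 in all 8 libraries.

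The Cd274 promoter region (-0.1 kb, chr19:29366903-29367903) held 573.27 and 151.88 H3K27ac tags in basal cells, 362.55 and 115.66 at 1 hour, 337.3 and 329.83 at 6 hours and 437.15 and 177.2 at 24 hours. All times overlapped, and the log2 fold at 24 hours was -0.08 (limma adjusted p = 0.958). Its Pol II was 391.22, 389.19, 65.38 and 70.88 in basal cells, 503.18 at 1 hour, 351.55 and 648.39 at 6 hours and 575.57, 621.2 and 133.39 at 24 hours. The basal libraries split into a high and a low pair and overlapped the treated ones, and the log2 fold at 24 hours of 1.15 was not called (adjusted p = 0.641).

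Named regions inside Cd274 had their highest mean H3K27ac at 6 hours, a difference that limma did not call. At Cd274 +13.3 kb in intron 4 the values were 61.74 and 48.49 in basal cells, 251.23 and 23.75 at 1 hour, 362.71 and 211.77 at 6 hours and 156.19 and 72.19 at 24 hours. The 6-hour libraries were above the basal and the 24-hour ones, the 1-hour libraries lay on both sides of the basal ones, and the log2 fold was 2.32 at 6 hours (SE 0.79, limma adjusted p = 0.0954) and 0.94 at 24 hours (adjusted p = 0.534). At +1.6 kb in intron 1, the region of Cd274 outside its promoter with the most H3K27ac, the values were 267.3 and 54.19 in basal cells, 525.66 and 88.47 at 1 hour, 499.02 and 283.58 at 6 hours and 318.31 and 104.35 at 24 hours, and the log2 fold at 6 hours was 1.63 (adjusted p = 0.281). The 6 regions from +1.6 to +17.7 kb had log2 folds of 1.13 to 2.57 at 6 hours, with both 6-hour libraries above both basal ones at each, and of -1.04 to -1.94 from 6 to 24 hours, where 5 of the 6 did not overlap. Over all 23 regions 13 were higher at 6 hours without overlap, against 23% of all regions, and 1 was lower, against 33.4%. From 6 to 24 hours 5 of the 23 were lower without overlap, against 23.2% of all regions, and 5 were higher, against 17.6%, so the count of lower regions was near the share of the whole table. From 6 to 24 hours limma called 0 of 23 (0.0731% of all regions), with 1 at an unadjusted p under 0.05 and 0 by edgeR and by DESeq2, so the lower values of Cd274 at 24 hours did not pass a test. Pol II at +13.3 kb was 169.72, 165.3, 36.98 and 13.16 in basal cells, 258.45 at 1 hour, 252.99 and 314.45 at 6 hours and 345.48, 370.9 and 39.76 at 24 hours, with a log2 fold at 6 hours of 2.18 (adjusted p = 0.37).

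**Figure D2:**
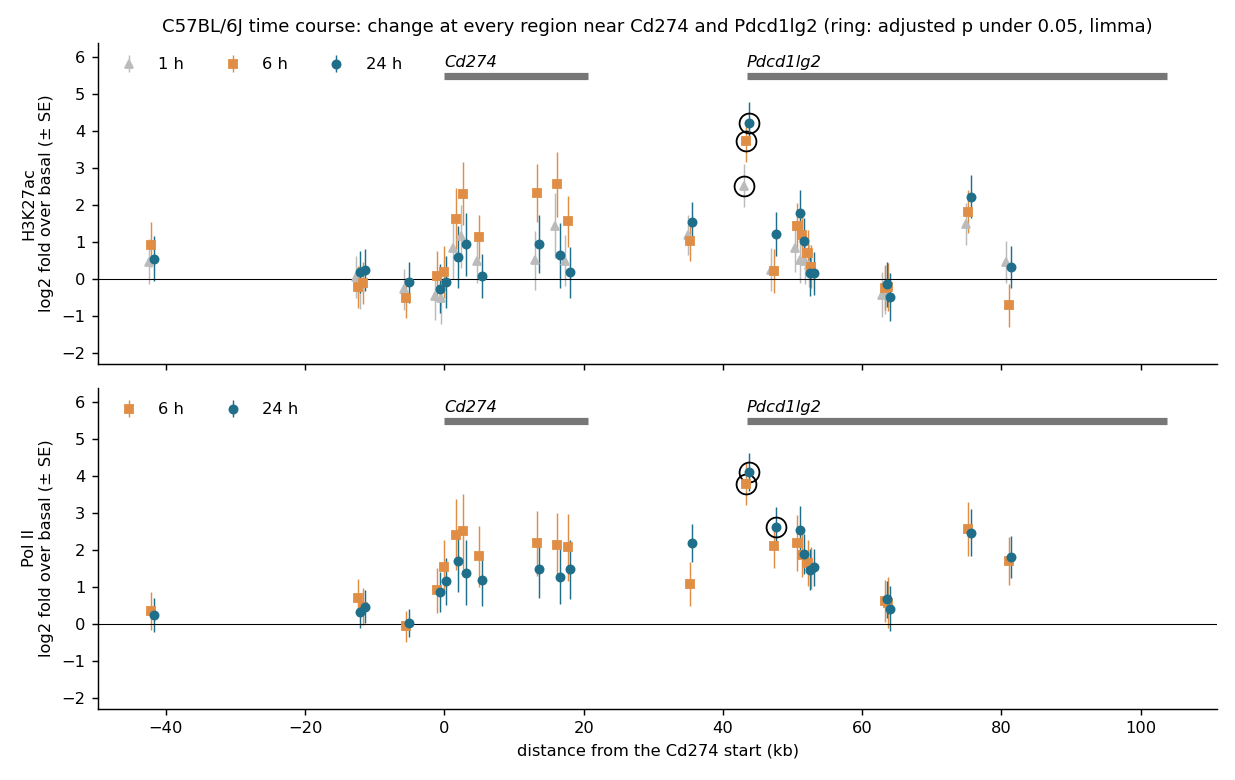
Log2 fold of H3K27ac (upper) and Pol II (lower) over basal with its SE at all 23 regions in C57 cells, by distance from the Cd274 start in kb, with bars for the gene bodies and rings for an adjusted p under 0.05. The rings sit at the Pdcd1lg2 promoter and, for Pol II at 24 hours, at +3.8 kb, and the 6-hour points inside Cd274 lie above the 24-hour ones.

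The study called a region IL-4–induced only when H3K27ac and Pol II both passed a fold, whereas here each mark was taken alone. The counts by fold given here are therefore not those of the study. By a rule with its thresholds (group means + 1 at least 2.5-fold higher, with 16 tags in either group for H3K27ac and 8 for Pol II, and no test) 4 of 23 regions were higher in H3K27ac at 1 hour, against 2.31% of all regions, 6 at 6 hours against 5.59% and 4 at 24 hours against 3.77%. At 6 hours these were 4 regions of Cd274, +2.7 kb (3.88-fold), +13.3 kb (5.14-fold), +16.2 kb (4.10-fold) and +17.7 kb (2.90-fold), and 2 of Pdcd1lg2, the promoter (12.58-fold) and +31.8 kb (3.36-fold). At 24 hours all 4 were regions of Pdcd1lg2, -8.2 kb (2.90-fold), the promoter (17.62-fold), +7.2 kb (2.97-fold) and +31.8 kb (4.57-fold). A lone high or low library moved the counts from 1 to 8 at 1 hour, from 2 to 11 at 6 hours and from 3 to 9 at 24 hours when libraries were left out in turn.

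To compare strains, basal and 24-hour cells were set side by side in each of the 5 strains. At Pdcd1lg2 +7.2 kb the mean H3K27ac was higher after IL-4 in every strain. The 24-hour libraries held 247.01 and 141.11 tags against 101.09 and 27.1 in basal C57 cells, 298.19 and 70.03 against 83.04 and 45.87 in BALB, and 180.82 and 88.93 against 49.04 and 30.16 in NOD. They held 78.12 and 62.03 against 24.03 and 25.06 in PWK and 76.7 and 48.46 against 37.62 and 17.12 in SPRET. In BALB 1 treated library lay below the higher basal one, and in the other 4 strains the groups did not overlap. The log2 folds were 1.81, 1.22, 1.70, 1.47 and 1.23 in this order, with limma adjusted p of 0.185, 0.527, 0.282, 0.25 and 0.241, so within single strains with 2 libraries a group none was called.

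Pol II at +7.2 kb also had the higher mean after IL-4 in every strain. In C57 it was 117.38, 70.99 and 20.52 against 30.57, 14.44, 2.14 and 5.06 in basal cells (log2 fold 2.53, SE 0.70, limma adjusted p = 0.158). In BALB it was 98.05 and 36.5 against 30.02, 2.97 and 6.56 (2.64, SE 0.65, adjusted p = 0.012), and in PWK 15.1, 15.08 and 23.95 against 0.71, 2.8 and 6.06 (2.38, SE 0.54, adjusted p = 0.0388). The groups did not overlap in BALB or PWK. Both calls were lost with median-ratio scaling and by edgeR, the BALB call also by DESeq2 and without 24-hour replicate 1 or basal replicate 2 or 3, and the PWK call without any 1 of its 6 libraries. In NOD it was 62.75 and 17.54 against 11.68 and 6.85 (1.78, adjusted p = 0.551), and in SPRET 25.35, 7.78 and 11.08 against 11.61, 3.05 and 5.13 (1.05, adjusted p = 0.444), where 2 treated libraries were below the highest basal one. At +3.8 kb Pol II in BALB was 31.97 and 26.18 against 1.92, 1.78 and 6.56 (2.92, adjusted p = 0.00589), a call likewise lost by edgeR, by DESeq2, with median-ratio scaling, and without 24-hour replicate 1 or any basal library.

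The Pdcd1lg2 promoter had a row in the SPRET table among the 5 strain tables. There H3K27ac was 249.49 and 61.38 at 24 hours against 11.97 and 5.93 in basal cells (log2 fold 3.72, SE 0.55, limma adjusted p = 0.00281), and Pol II was 60, 16.26 and 24.01 against 0, 2.28 and 1.54 (3.88, SE 0.58, adjusted p = 0.0116). The groups did not overlap for either, and the basal Pol II values stood for 0, 3 and 3 reads. The H3K27ac call was lost without 24-hour replicate 1 (2.72) or 2 (4.72) or basal replicate 2 (3.27), and the Pol II call without 24-hour replicate 1 or 2 or basal replicate 3. H3K4me2 there was 47.08 and 25.4 against 20.21 and 12.6, and H3K4me3 20.85 and 3.88 against 1.7 and 0.71, neither called. Tags at the Pdcd1lg2 promoter were not analysed here in BALB, NOD and PWK.

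The Cd274 promoter was high in every strain before and after IL-4. H3K27ac was 438.85 and 177.2 at 24 hours against 575.99 and 153.31 in basal C57 cells, 487.2 and 137.68 against 481.33 and 187.66 in BALB, and 369.6 and 165.48 against 327.49 and 156.37 in NOD. It was 246.48 and 92.57 against 157.94 and 117.45 in PWK and 376.45 and 137.85 against 218 and 160.02 in SPRET. The groups overlapped in all 5 strains, with log2 folds between -0.21 and 0.29. Pol II at this promoter was 574.91, 620.74 and 133.39 against 389.35, 387.58, 65.38 and 70.88 in C57, 524.34 and 242.01 against 288.71, 109.13 and 92.98 in BALB, and 326.21 and 184.89 against 180.37 and 98.6 in NOD. It was 295.52, 133.61 and 171.9 against 182.7, 135.69 and 131.07 in PWK and 411.55, 174.59 and 187.46 against 201.26, 118.77 and 127.33 in SPRET. The groups overlapped in all but NOD, where the lower treated library exceeded the higher basal one, and the log2 folds of 1.15, 1.31, 0.88, 0.35 and 0.71 were not called within strains in the fits without a block. The SPRET value of 0.71 was called in the fit blocked on replicate number.

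**Figure D3:**
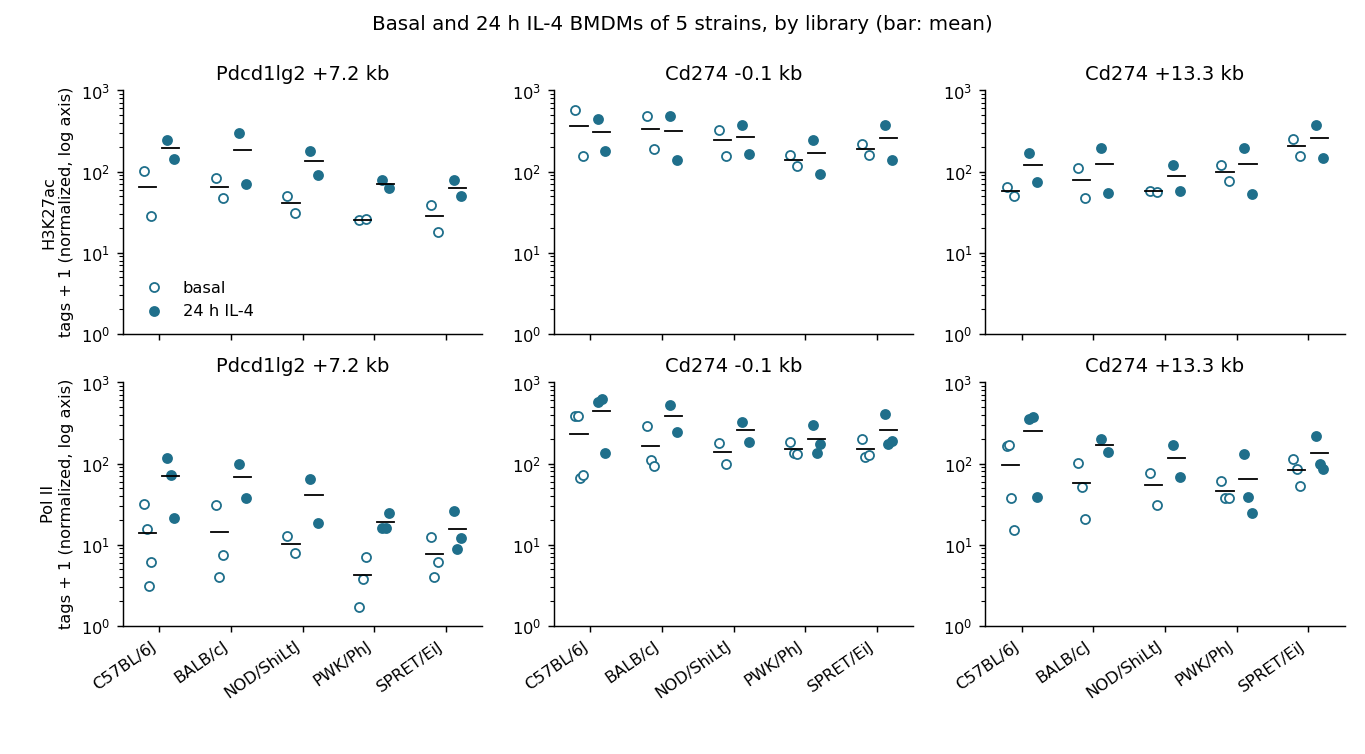
H3K27ac (upper row) and Pol II (lower row) in normalized tags + 1 on a log axis at 3 regions in basal (open) and 24-hour IL-4 cells (filled) of 5 strains, with a point per library and a bar at the group mean. At Pdcd1lg2 +7.2 kb the treated means lie above the basal means in all 5 strains, and at the Cd274 promoter the H3K27ac groups overlap in each.

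In a fit over all 5 strains, with strain and IL-4 as terms, 5 member regions were among 29462 regions found in all strain tables. H3K27ac was higher after 24 hours at Pdcd1lg2 +7.2 kb by a log2 fold of 1.48 (SE 0.26, limma adjusted p = 0.000107, 20 libraries), the 1 of 5 called higher against 8.01% of all regions, while the median region changed by -0.31. The other log2 folds were -0.09 at Cd274 -5.5 kb, 0.05 at the Cd274 promoter (SE 0.29, adjusted p = 0.901), 0.48 at Cd274 +13.3 kb (SE 0.28, adjusted p = 0.168) and 0.40 at Pdcd1lg2 +9.2 kb (SE 0.20, adjusted p = 0.0994). With the replicate number as a block, which paired the H3K27ac libraries over the 5 strains, 3 of 5 were called, +7.2 kb, Cd274 +13.3 kb (adjusted p = 0.0101) and Pdcd1lg2 +9.2 kb (adjusted p = 0.0184), against 56.7% of all regions called in either direction by that fit. Pol II was called higher at 4 of 5, against 7.77% of all regions, with 28 libraries and a median over all regions of 0.01. It was higher by 2.09 at Pdcd1lg2 +7.2 kb (SE 0.35, adjusted p = 3.11e-05), 1.54 at +9.2 kb (SE 0.21, adjusted p = 8.65e-07), 1.01 at Cd274 +13.3 kb (SE 0.35, adjusted p = 0.0446) and 0.87 at the Cd274 promoter (SE 0.27, adjusted p = 0.0194). The Pdcd1lg2 calls held without each strain in turn. The Cd274 promoter call was lost without BALB (0.78) or SPRET (0.91), and the +13.3 kb call without C57, BALB, NOD or SPRET (0.84 to 1.12). The interaction of strain with IL-4 was called at 0 of 5 regions in each mark, with adjusted p of 1 and unadjusted p of 0.205 or more, so a difference between strains was not shown.

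H3K4me2 was lower after IL-4 at the Cd274 promoter by a log2 fold of -0.84 over the 5 strains (SE 0.17, limma adjusted p = 5.11e-05), and at Cd274 -5.5 kb (-0.70, adjusted p = 0.000339) and Pdcd1lg2 +9.2 kb (-0.41, adjusted p = 0.0267). These 3 of 5 regions stood against 74.4% of all regions called lower and a median of -0.53, so a fall in H3K4me2 was the common case. In C57 the Cd274 promoter held 40.26 and 30.01 H3K4me2 tags at 24 hours against 75.96 and 94.31 in basal cells. At Pdcd1lg2 +7.2 kb H3K4me2 had a log2 fold of 0.16 (SE 0.18, adjusted p = 0.409). H3K4me3, the mark of active promoters, was called at 0 of 5 against 22.9% of all regions, with 2 at an unadjusted p under 0.05 in limma and no other tool run. At the Cd274 promoter in C57 it was 595.78 and 543.89 at 24 hours and 684.24 and 557.3 in basal cells, and no library of any strain passed 21.6 at a counted region of Pdcd1lg2. The promoter of Pdcd1lg2 was among the counted regions in SPRET alone (20.85 and 3.88 at 24 hours), so its H3K4me3 in the other strains is not known from these values.

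Counted within each strain, the number of member regions called by limma without a block was small. For H3K27ac it was 0 of 17 in C57 (0% of all regions), 0 of 13 in BALB (2.26%), 0 of 18 in NOD (0.0566%), 0 of 11 in PWK (0.535%) and 1 of 20 in SPRET (1.19%). At an unadjusted p under 0.05 there were 2, 1, 3, 2 and 5, by edgeR 0, 1, 0, 0 and 1 and by DESeq2 1, 2, 2, 0 and 1. For Pol II it was 0 of 17 (0.319%), 2 of 13 (0.707%), 0 of 18 (0%), 1 of 11 (1.72%) and 1 of 20 (1.05%), with 5, 7, 6, 4 and 8 at an unadjusted p under 0.05, 1, 0, 0, 0 and 1 by edgeR and 4, 2, 2, 1 and 5 by DESeq2. In a fit blocked on replicate number, where it paired the libraries, the Pol II counts were 2 in C57, Pdcd1lg2 +3.8 kb (log2 fold 2.60) and +7.2 kb (2.30), 4 in PWK and 13 in SPRET, against 0.809%, 9.78% and 8.39% of all regions called in either direction by these fits. The 13 in SPRET had among them the Cd274 promoter (0.71), +1.6 kb (1.14) and +13.3 kb (0.62). H3K4me2 was called at 0 member regions in C57, BALB, NOD, PWK and SPRET (0.236%, 0.0111%, 0.189%, 0.314% and 0% of all regions), with 5, 0, 0, 0 and 5 at an unadjusted p under 0.05 and 0 by edgeR and DESeq2. H3K4me3 was called at 0 in each (0%, 0%, 0.0203%, 0.0349% and 0%), with 3, 0, 1, 0 and 1 at an unadjusted p under 0.05, 2 in SPRET by edgeR and 0 by DESeq2.

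By the fold rule, Pdcd1lg2 +7.2 kb was higher in H3K27ac in C57 (3.0-fold), BALB (2.83-fold), NOD (3.35-fold) and PWK (2.78-fold). The H3K27ac counts were 2 of 17 in C57 (3.46% of all regions), 2 of 13 in BALB (2.84%), 3 of 18 in NOD (3.24%), 1 of 11 in PWK (3.1%) and 3 of 20 in SPRET (2.64%). In SPRET these were the Pdcd1lg2 promoter (15.72-fold), +3.8 kb (3.12-fold) and -19.4 kb (3.91-fold), and in NOD +31.8 kb reached 7.47-fold. The Pol II counts were 6 of 17 (1.57%), 6 of 13 (5.91%), 6 of 18 (2.35%), 2 of 11 (2.66%) and 2 of 20 (1.54%). All H3K27ac regions past the rule had Pdcd1lg2 as the nearer start, though -19.4 kb among them lies between the 2 genes. For Pol II Cd274 regions passed in C57 (+13.3 kb, 2.62-fold, and +16.2 kb, 2.59-fold), BALB (+13.3 kb, 2.96-fold) and NOD (+1.6 kb, 3.07-fold).

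Factor binding was given as lists of peaks reproducible between libraries, with 1 list per strain and condition and so no replicate and no test. At the Pdcd1lg2 promoter STAT6, the factor that IL-4 activates, had a peak in 0 of 5 strains in basal cells and in 5 of 5 at 24 hours, and in C57 also at 1 and 6 hours. All 7 of these peaks covered the TTCCTCAGAA match printed above (chr19:29410837-29410846), with centres 31 to 80 bp before the gene start. EGR2 had a peak there in 0 strains in basal cells and 3 at 24 hours (C57, BALB and SPRET), PU.1, the lineage factor of macrophages, in 2 and 5, PPARγ in 0 and 1, and C/EBPβ in 0 at either time. At the Cd274 promoter PU.1 had a peak in 5 strains in both conditions and STAT6 in 0 and then 3. At Cd274 +13.3 kb PU.1 was in 5 and 5, C/EBPβ in 2 and then 5, PPARγ in 2 and then 5 and STAT6 in 3 and then 4 strains. The gain of STAT6 was not particular to the Pdcd1lg2 promoter. STAT6 also went from 0 to 5 strains at Pdcd1lg2 +31.8 kb, with C57 peaks at 1 and 6 hours, and from 1 to 5 at Cd274 +16.2 kb.

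Inside Pdcd1lg2 the regions differed in what they carried before IL-4. At +8.7 kb PU.1, C/EBPβ and STAT6 had peaks in 5 strains in both conditions. At +20.2 kb PU.1 had peaks in 5 strains in basal cells and 2 at 24 hours, and EGR2 in 2 and then 4. At +7.2 kb, the region outside the promoter with the largest H3K27ac log2 fold at 24 hours in the C57 strain table, PU.1, C/EBPβ and STAT6 had peaks in 0 strains in basal cells and in 3, 2 and 2 at 24 hours, and EGR2 in 3 in both. The lists differ in size, which bears on every such count: of all STAT6 peaks in C57, members were 7 of 30589 in basal cells, 18 of 24376 at 1 hour, 13 of 23884 at 6 hours and 16 of 39537 at 24 hours. PPARγ in C57 went from 1 of 7627 to 16 of 39088. Of the 564 member peaks, 497 lay in a row of a strain or time-course table and 67 in none.

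**Figure D4:**
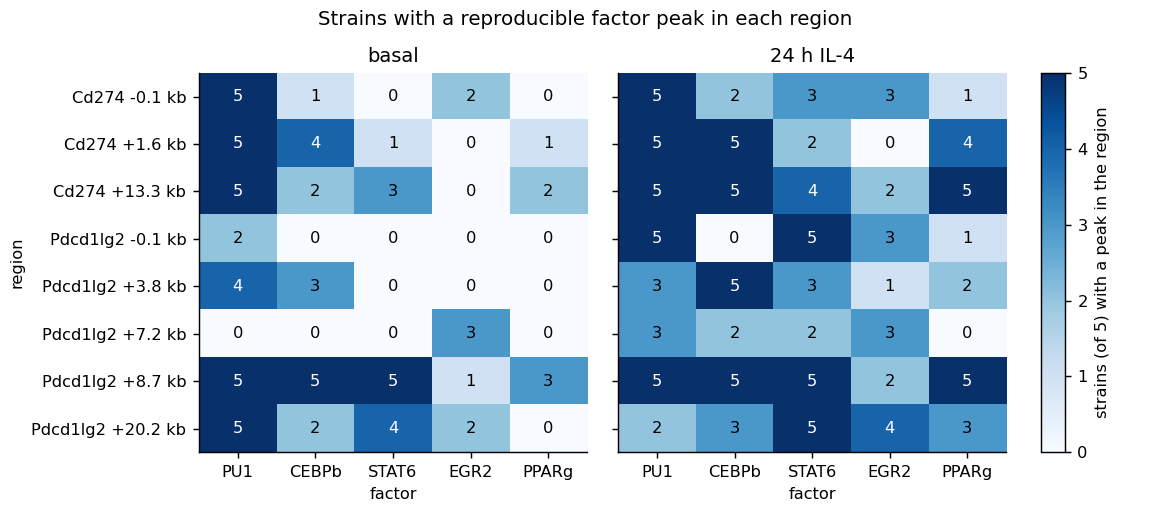
Number of strains, of 5, with a reproducible peak of each factor (columns) in each of 8 regions (rows), in basal cells (left) and at 24 hours of IL-4 (right). STAT6 at the Pdcd1lg2 promoter goes from 0 to 5 strains, and PU.1 at the Cd274 promoter is at 5 in both.

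EGR2 is a zinc finger factor that IL-4 induces in macrophages, and its tags were counted at 1, 6 and 24 hours in C57. At the Pdcd1lg2 start (-0.0 kb) they were 23.42 and 10.74 in basal cells, 23.48 and 52.08 at 1 hour, 45.39 and 60.10 at 6 hours and 60.14 and 38.40 at 24 hours. Both libraries of each later time lay above both basal ones, and the log2 fold at 24 hours was 1.54 (SE 0.74, limma adjusted p = 0.838). At +8.7 kb the values were 23.88 and 13.43, then 15.35 and 63.65, 13.97 and 46.86, and 56.1 and 31.68 at 24 hours. At +20.2 kb they were 18.26 and 13.43 in basal cells and 38.15 and 37.44 at 24 hours. The site nearest to Insl6, Cd274 -42.0 kb, had the most EGR2 of the Cd274 sites, with 26.69 and 60.43 in basal cells and 100.99 and 108.48 at 24 hours (1.36, SE 0.71, adjusted p = 0.838). Limma called 0 of 10 member sites at 1, 6 and 24 hours (0%, 0% and 0% of all sites), with 0, 2 and 1 at an unadjusted p under 0.05 and 0 by edgeR and DESeq2. At 24 hours 9 of 10 were higher without overlap against 54.6% of all sites, with a median log2 fold of 1.20 against 0.66. Sites entered this table through an EGR2 peak in basal or treated cells. Most member sites, +8.7 and +20.2 kb among them, entered through a 24-hour peak alone, and the site that overlapped through a 1-hour peak alone. Higher EGR2 at 24 hours is thus partly set by how sites were chosen. How many of all sites entered through a 24-hour peak alone was not counted, so these shares show no excess at the member sites.

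The 2 Egr2 genotypes were compared at 4 EGR2 sites of Pdcd1lg2. The sites of these tables were chosen by the authors as EGR2 peaks induced at 24 hours of IL-4, so gained EGR2 there is no result, and every share given for them is over that chosen set. At 24 hours of IL-4 both LyzM-Cre Egr2 fl/fl libraries were above both Egr2 fl/fl libraries in H3K27ac at all 4 sites, against 9.6% of all sites, and 3 of the differences were called. At +20.2 kb it was 368.84 and 340.11 in LyzM-Cre Egr2 fl/fl and 139.7 and 137.44 in Egr2 fl/fl cells at 24 hours, and 261.76 and 214.12 against 168.71 and 171.05 in basal cells. The genotypes did not overlap in either condition, and the log2 difference was 1.35 at 24 hours (SE 0.19, limma adjusted p = 0.00027) and 0.48 in basal cells (adjusted p = 0.331). At +7.9 kb it was 638.98 and 612.9 against 366.85 and 439.95 at 24 hours (0.64, SE 0.19, adjusted p = 0.0212) and 204.59 and 207.4 against 243.69 and 212.45 in basal cells. At +8.7 kb it was 420.79 and 430.65 against 257.3 and 275.53 at 24 hours (0.67, SE 0.18, adjusted p = 0.0142) and 188.55 and 194.5 against 204.5 and 190.73 in basal cells. At +3.8 kb, the lowest of the 4, it was 61.3 and 37.73 against 36.18 and 33.4 (0.46, SE 0.31, adjusted p = 0.312).

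At 24 hours 3 of 4 sites were called higher in LyzM-Cre Egr2 fl/fl cells, against 1.41% of all 4677 sites, and the median log2 difference over all sites was -0.40. In basal cells 0 of 4 were called (0.192%), with 1 at an unadjusted p under 0.05 and 0 by edgeR and DESeq2. The +20.2 kb call held without each library in turn, the +8.7 kb call was lost without any 1 of the 4 libraries at 24 hours and the +7.9 kb call in 3 of 4 cases. IL-4 raised H3K27ac in Egr2 fl/fl cells at +7.9 kb (0.82, SE 0.19, adjusted p = 0.00389), 1 of 4 called higher against 25.6% of all sites, and median-ratio scaling gave 0.32 and no call there. With that scaling +20.2 kb was called lower with IL-4 in Egr2 fl/fl cells instead (-0.79, limma adjusted p = 0.00671). Median-ratio scaling takes the typical site of this chosen set as unchanged. The median log2 fold of these sites with IL-4 in Egr2 fl/fl cells was 0.47 without it, so that call depends on the scaling. In LyzM-Cre Egr2 fl/fl cells all 4 were called higher against 14.4%, by 1.02 at +3.8 kb (adjusted p = 0.031), 1.60 at +7.9 kb (adjusted p = 1.24e-05), 1.15 at +8.7 kb (adjusted p = 0.000268) and 0.58 at +20.2 kb (adjusted p = 0.0478). The calls at +3.8 and +20.2 kb were lost by edgeR, by DESeq2 and with median-ratio scaling. The interaction of genotype with IL-4 was called at 0 of 4 sites (0% of all sites), with 3 at an unadjusted p under 0.05 and 0 by edgeR and DESeq2, so that the IL-4 responses were not shown to differ between genotypes. Pol II, with 1 library a group and no replicate check, was 53.23 tags at +20.2 kb in LyzM-Cre Egr2 fl/fl and 26.37 in Egr2 fl/fl cells at 24 hours and 24.05 and 21.7 in basal cells.

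**Figure D5:**
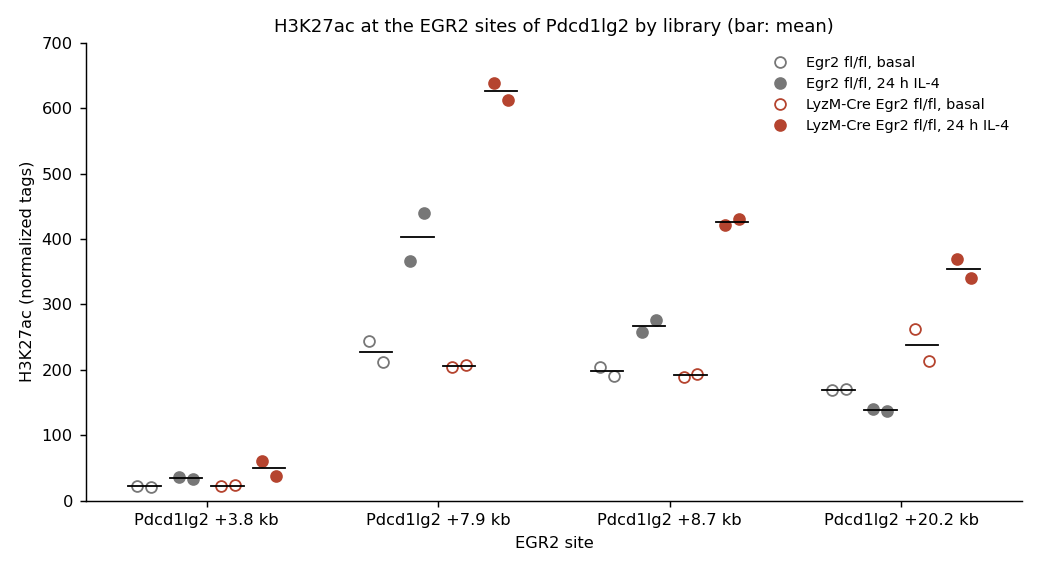
H3K27ac in normalized tags at 4 EGR2 sites of Pdcd1lg2 in Egr2 fl/fl (grey) and LyzM-Cre Egr2 fl/fl cells (red), basal (open) and at 24 hours of IL-4 (filled), with a point per library and a bar at the mean. At +7.9, +8.7 and +20.2 kb both red filled points lie above both grey filled points.

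Factor binding at these 4 sites gave few calls. PU.1 at +8.7 kb was 92.45 and 104.53 in LyzM-Cre Egr2 fl/fl and 71.11 and 76.02 in Egr2 fl/fl cells at 24 hours, and 52.06 and 60.16 against 50.15 and 55.28 in basal cells. The rise with IL-4 in LyzM-Cre Egr2 fl/fl cells was called (0.80, SE 0.18, limma adjusted p = 0.0225, 1 of 4 against 2.8% of all sites) and was lost by DESeq2 and with median-ratio scaling (0.67). STAT6 at +8.7 kb was 27.39 and 30.1 at 24 hours and 7.22 and 8.38 in basal Egr2 fl/fl cells, and 31.96 and 15.77 against 7.8 and 5.51 in LyzM-Cre Egr2 fl/fl cells. Its rise in Egr2 fl/fl cells was called (1.76, adjusted p = 0.042, 1 of 4 against 11.8%) and was lost by edgeR, DESeq2 and median-ratio scaling (0.63). Between genotypes at 24 hours limma called 0 of 4 sites for H3K4me2 (9.09% of all sites), PU.1 (9.45%), C/EBPβ (8.25%), STAT6 (0.0214%) and PPARγ (0%). At an unadjusted p under 0.05 there was 1 for PU.1 and 1 for STAT6, and the 1 call by another tool was PU.1 by edgeR. PPARγ was lower in LyzM-Cre Egr2 fl/fl cells without overlap at all 4 sites, against 40.1% of all sites, by log2 differences of -2.64 at +3.8 kb, -1.88 at +7.9 kb, -2.97 at +8.7 kb and -1.29 at +20.2 kb (limma adjusted p of 0.46 or more), with a median of -2.26 beside -1.89 over all sites. PPARγ at +8.7 kb was 32.77 and 59.88 in Egr2 fl/fl and 32.67 and 0 in LyzM-Cre Egr2 fl/fl cells at 24 hours, and the second of these LyzM-Cre Egr2 fl/fl libraries held 0 tags at 3 of the 4 sites.

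Of 33 listed genes of the PD-1 pathway and its signaling, other than the members, 19 had a promoter region in the fit over 5 strains. For H3K27ac 1 was called higher and 9 lower, against 8.01% and 32.6% of all regions, with a median log2 fold of -0.54 beside -0.31 over all regions. For Pol II 1 was higher and 3 lower, against 7.77% and 8.46%. The 1 gene higher in both was Irf4, a transcription factor that IL-4 induces in macrophages (H3K27ac 1.51, limma adjusted p = 6.43e-05, and Pol II 1.75, adjusted p = 3.01e-08). Among 7 of 13 costimulatory ligands and relatives 4 were lower in H3K27ac and 0 higher, among them Cd86, a ligand of CD28 and CTLA-4 (-0.96, adjusted p = 0.00212), and Icosl, the ligand of ICOS (-1.38, adjusted p = 3.39e-05). Icosl was also lower in Pol II (-1.53, adjusted p = 4.9e-06). Stat6 itself was lower in H3K27ac (-0.76, adjusted p = 0.00107). None of the 6 receptors and partners, Pdcd1 included, had a region in this fit.

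Across the 20 H3K27ac libraries of the 5 strains, the promoters whose level followed the Cd274 promoter most closely were those of Ankrd24 and Sirt6, which share a region (Pearson r 0.915), Ascc3 (0.909), Car13 (0.906) and Odf2l (0.902), of 8496 promoter regions with a median r of 0.39. The libraries share their strain, condition and depth, so these values describe likeness alone. The measure could not be had for Pdcd1lg2, whose promoter region was in 1 of the 5 strain tables.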

How the data were processed

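ChIP-seq libraries of BMDMs from 5 strains and 2 Egr2 genotypes were analysed from 9 deposited tag tables and 54 peak lists. The authors mapped reads with bowtie2 to strain genomes, shifted them to mm10 and counted them with HOMER, and deposited the signal as normalized tags scaled to 10000000 tags per library. Peak lists hold peaks reproducible between libraries, with a score and a tag signal written by the authors. The score was named an IDR score except in the PPARγ lists and in the EGR2 lists of BALB, NOD, PWK and SPRET. Whether these lists were made like the others is not stated. 4 value columns matched no sample and were not used. Whole reads were recovered from the tags (100% of values within 0.1 read) for edgeR and DESeq2. Depth, 4691644 to 29050468 tags, is a count of reads that limits the precision of low values. Libraries also differed in the share of their tags that fell in the counted regions. For H3K27ac in the C57 time course it was 69.7% and 63.8% in basal cells and 44.0% and 20.5% at 1 hour. It was 51.0% and 50.2% at 6 hours and 46.4% and 41.2% at 24 hours. For EGR2 at 1 hour it was 5.4% and 13.1%. Tags were scaled to the whole library and so carry these differences, whose part in the results was not tested.

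The main test was limma (3.58.1, trend) on log2(tags + 1) in R 4.3.3 over all rows of a table, without a filter, with Benjamini-Hochberg adjustment and a threshold of 0.05. It was run on simulated counts, drawn independently with a fixed dispersion. These lacked the differences shared across a library that the real data hold, so they do not show how the test behaves here. All H3K27ac or Pol II libraries of the time course, and all genotype libraries of a target, shared 1 fit. Contrasts in a fit share basal libraries. edgeR 4.0.16, DESeq2 1.42.0, a pseudocount of 5, filters, median-ratio scaling, a replicate block and leaving out libraries were alternatives. The fit over 5 strains and the contrast of 24 with 6 hours were added after seeing the data. Same-numbered Pol II libraries deviated together in C57 (r 0.118, 0.24 and 0.207; time course 0.109, 0.226 and 0.192), PWK (0.469, 0.201 and 0.282) and SPRET (0.31, 0.258 and 0.224), and so did same-numbered H3K27ac libraries in each of the 5 strains (r 0.261 to 0.492), so the replicate number was taken to pair them in those Pol II fits and in the H3K27ac fit over 5 strains, from the data and not the labels. With 2 pairs in a strain it was not taken to pair H3K27ac libraries within strains, nor Pol II libraries in BALB (r 0.25 and 0.3) or NOD (0.368).

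The members and gene lists were chosen with earlier results of these data known. Named regions were, per gene, the promoter, the region with most H3K27ac in C57 and that with the largest 24-hour rise in the C57 strain table. Also named were all regions called by limma, the leading EGR2 site and the sites of the genotype tables. The C57 strain table had no row for Pdcd1lg2 +31.8 kb, where the time course gave a larger 24-hour fold than at +7.2 kb. Pdcd1lg2 +9.2 kb, Cd274 -5.5 kb and regions named by the fold rule were named after their values were seen. Sequences and motif shares came from RefSeq GRCm38.p6, gene starts from GENCODE vM21.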

Additional observations from a re-analysis of the deposited data

Results flagged for a closer look

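At the EGR2 site Pdcd1lg2 +20.2 kb the IL-4 response of H3K27ac went in opposite directions in the 2 genotypes. The log2 fold with IL-4 was -0.29 in Egr2 fl/fl cells, where both 24-hour libraries (139.7 and 137.44 normalized tags) lay below both basal ones (168.71 and 171.05), and 0.58 in LyzM-Cre Egr2 fl/fl cells, where both 24-hour libraries (368.84 and 340.11) lay above both basal ones (261.76 and 214.12). Under median-ratio scaling the fall in Egr2 fl/fl cells was -0.79 and was called (limma adjusted p = 0.00671), and the rise in LyzM-Cre Egr2 fl/fl cells was 0.40 and was not (adjusted p = 0.151). That scaling takes the typical site as unchanged, in a set chosen for EGR2 gained with IL-4. The median log2 fold of these sites in Egr2 fl/fl cells was 0.47 without it, so the called fall depends on the scaling. The test of the difference itself, the interaction term in limma, gave 0.87 with an SE of 0.27 and an adjusted p of 0.18 over 4677 sites, so the difference did not pass the correction. The basal libraries of the genotypes also differed by 0.48 (adjusted p = 0.331).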

How the results depend on the processing

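No called log2 fold of a named region reversed in 3195 refits under the alternatives, while 80 lost their call and 80 gained one. Among folds that were not called 357 changed sign, and the causes were not tested. By the fold rule a pseudocount of 5 gave 1 region in C57 and 1 at 1 hour for H3K27ac and 1 in PWK and 1 in SPRET for Pol II. The stricter filter gave 1 in SPRET for each. A fold of 2 gave 4 in C57, 2 in PWK, 6 in SPRET and 11 at 6 hours for H3K27ac and 4 in PWK and 10 in SPRET for Pol II. Median-ratio scaling gave 4 in C57, 2 in PWK and 10 at 1 hour for H3K27ac and 5 in SPRET for Pol II. Leaving out single libraries gave H3K27ac counts of 1 to 6 in C57, 1 to 3 in BALB, 2 to 6 in NOD, 0 to 2 in PWK, 1 to 9 in SPRET, 1 to 8 at 1 hour, 2 to 11 at 6 hours and 3 to 9 at 24 hours, and Pol II counts of 4 to 12 in C57, 4 to 11 in NOD, 1 to 3 in PWK and 1 to 9 in SPRET.

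For limma, median-ratio scaling gave 1 in BALB, 2 at each of 1, 6 and 24 hours and 3 over 5 strains for H3K27ac, 1 in C57, 0 in BALB and 0 in PWK for Pol II, 2 for IL-4 in LyzM-Cre Egr2 fl/fl cells, 1 for PU.1 between genotypes, 0 for PU.1 with IL-4 and 0 for STAT6 with IL-4. edgeR gave 1 in BALB, 2 at 1 hour, 3 at 6 hours and 2 at 24 hours for H3K27ac, 1 in C57, 0 in BALB and 0 in PWK for Pol II, 2 for H3K4me3 in SPRET, 2 for IL-4 in LyzM-Cre Egr2 fl/fl cells, 1 for PU.1 between genotypes and 0 for STAT6. DESeq2 gave 1 in C57, 2 in BALB, 2 in NOD, 3 at 1 hour, 6 at 6 hours and 4 at 24 hours for H3K27ac, 4 in C57, 2 in NOD, 5 in SPRET, 4 at 6 hours and 7 at 24 hours for Pol II, 2 for IL-4 in LyzM-Cre Egr2 fl/fl cells and 0 for PU.1 and STAT6 with IL-4.

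Where the replicate number was not taken to pair the libraries, limma with the block called 7 in C57, 1 in BALB, 5 in NOD, 2 in PWK, 4 in SPRET, 3 at 1 hour, 7 at 6 hours, 3 at 24 hours and 1 from 6 to 24 hours for H3K27ac. Same-numbered H3K27ac libraries deviated together within the strains (r 0.261 to 0.492), so the counts without a block may leave out a pairing. The block gave 0 in BALB and 11 in NOD for Pol II, 5 for H3K4me2 in SPRET, 5 in C57 and 2 in PWK for H3K4me3, 2 for IL-4 in Egr2 fl/fl cells, 3 for the interaction, and 3 in Egr2 fl/fl and 1 in LyzM-Cre Egr2 fl/fl cells for STAT6. Where the share was taken, blocked fits called from 0.809% to 56.7% of all regions. Alternative counts printed without a share of all regions, here and above, show how a count moved and not an excess over all regions. Where the numbers paired the libraries, the block gave Pol II counts of 2 in C57, 4 in PWK, 13 in SPRET and 7 at 24 hours and an H3K27ac count of 3 over 5 strains, and it changed no other count of member calls by over 1.5 times.

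Without single libraries limma called 0 to 1 in BALB, NOD and SPRET, 0 to 2 at 1 hour and 0 to 3 at 6 hours for H3K27ac. It called 0 to 2 in C57 and BALB, 0 in PWK, 0 to 1 in SPRET, 0 to 5 at 6 hours and 1 to 7 at 24 hours for Pol II, and 0 to 10 in C57, 0 to 5 in BALB, 0 to 4 in NOD and 0 to 3 in SPRET for H3K4me2. It called 1 to 2 between genotypes at 24 hours, 0 to 1 for IL-4 in Egr2 fl/fl and 2 to 3 in LyzM-Cre Egr2 fl/fl cells for H3K27ac, and 0 to 1 for PU.1 and STAT6 with IL-4, and without single strains 2 to 4 for Pol II. A lone library left in a group was assumed to vary like the others. The higher-scoring part of each peak list, above its middle rank, held 364 of the 564 member peaks. Values that stand for 0 to 3 reads, such as basal Pol II at the Pdcd1lg2 promoter, carry wide counting error at this depth.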
